A study of Mus musculus with 185 samples.

Results

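Agrp, Npy, Pomc and Cartpt encode the feeding peptides of the arcuate nucleus, and the reads assigned to these 4 of 57010 genes were followed in 37 male C57BL/6J mice of 8 weeks. In the first study, mice were housed in pairs and either stayed on chow, were fasted or were switched to a high-fat diet (HFD) for 16 h, with 6 mice in each diet. In the second study, mice were housed singly and either stayed on chow (9 mice) or were fasted (10 mice) for 24 h. Each mouse gave 5 brain regions, among them the hypothalamus, hippocampus, and superior and inferior colliculus. The other was the prefrontal cortex in the first study and the zona incerta in the second. The counts hold 5 columns for each mouse. The column headings name the mouse, its study and its diet, but not the region. The peptides were therefore read in 3 ways: in the sum of the 5 columns of a mouse, in the column with the highest Pomc level in counts per 1000000 counts (CPM), and in the column with the highest mean log2(CPM + 1) over 10 hypothalamic genes (Oxt, Avp, Hcrt, Pmch, Ghrh, Nr5a1, Fezf1, Sim1, Otp and Rax), which is called the marker column here. The second choice uses Pomc, so Pomc in that column is described and not tested. Diets were compared only within a study.

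AgRP and NPY are made by the same hunger-promoting neurons of the arcuate nucleus. AgRP blocks the melanocortin receptors MC3R and MC4R, and NPY acts on its own receptors to raise food intake. A neighbouring population makes POMC, the precursor of alpha-MSH, which activates these melanocortin receptors and lowers food intake, and many of these cells also make CART, the product of Cartpt. In fasting, leptin and insulin fall and ghrelin rises, and the AgRP/NPY neurons respond to all of these hormones. Pomc is also the ACTH precursor of the anterior pituitary, Npy is made by many cortical and hippocampal interneurons, and Cartpt is found in several other brain areas.

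On GRCm39, Agrp lies on the minus strand of chromosome 8 (106293326 to 106364065), Npy on the plus strand of chromosome 6 (49799026 to 49806489), Pomc on the plus strand of chromosome 12 (4004944 to 4010642) and Cartpt on the minus strand of chromosome 13 (100034990 to 100047006). The exons of Agrp share 748 bases with Gm38250, a gene on the opposite strand and fewer with Ctcf and Gm5914. The other 3 members overlap no annotated gene. RefSeq promoter sequences (GRCm38.p6 table) were found for Npy, Pomc and Cartpt. Each 250 base window before the RefSeq start matched the chromosome of its gene on GRCm39 at 1 place, and other chromosomes were not searched. The windows of Npy and Cartpt lie inside exons of longer annotated transcripts. That of Pomc, the member whose level varied most between mice here, lies before every annotated exon but for its last base, and is shown without it, 5′ to 3′ on the plus strand at chr12:4004695-4004943, with the TATAAA box that begins 25 bases before the RefSeq start in capitals.
Pomc: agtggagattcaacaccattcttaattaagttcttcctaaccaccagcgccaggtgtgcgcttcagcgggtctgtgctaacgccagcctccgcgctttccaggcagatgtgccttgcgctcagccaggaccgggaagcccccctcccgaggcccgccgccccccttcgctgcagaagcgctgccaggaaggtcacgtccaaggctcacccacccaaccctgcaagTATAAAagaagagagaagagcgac
Of 32851 promoter windows of this length, 12.4% held TATAAA on either strand. The cAMP response element TGACGTCA was found 1 time in the Cartpt window and in 1.55% of all windows. No match of GTAAACA (the FoxO core, in 3.17% of all windows), TTCNNNGAA (STAT, 7.02%) or CACGTG (E-box, 6.02%) was found in these 3 windows.

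The 5 columns of a mouse summed to between 58.0 and 161.6 M counts (M, 1000000), with a median of 93 M. In whole tissue, the number of cells that make a peptide and the RNA per cell cannot be told apart. For the 2 kinds of chosen column, 7 mice were left out because the labels mark their hypothalamus library as failing alignment, which left 6 chow, 5 fasted and 6 HFD mice at 16 h, and 6 chow and 7 fasted mice at 24 h. By the labels, the hypothalamus libraries of these mice were all run on the same kind of flow cell. The 2 choices gave the same column in 28 of these 30 mice. In fasted mouse 11 of the 16 h study, the highest-Pomc column held only 55087 counts and 3 Pomc reads, against 745 Pomc reads in its marker column. In chow mouse 1432 of the 24 h study, the highest-Pomc column held 289 CPM of Pomc with a marker score of 1.40, against 4.98 in its marker column. HFD mouse 13 of the 16 h study had no column with a high level of the hypothalamic genes, its highest score being 0.562. The labels mark its hypothalamus library as a principal component outlier. In the other 29 mice the marker columns scored between 4.44 and 5.00, and each carried all 4 peptides.

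Agrp and Npy were higher after 24 h of fasting in both kinds of chosen column. In the marker column, Agrp lay at 3.86, 4.63 and 5.56 CPM (lowest, median and highest) in the 6 chow mice and at 7.48, 11.8 and 15.5 CPM in the 7 fasted mice. These values rest on 72 to 227 Agrp reads per chow mouse and 217 to 747 per fasted mouse. Every fasted mouse lay above every chow mouse. The log2 fold change was 1.32 ± 0.14 (SE), a 2.5-fold increase, with an adjusted p of 1.8e-05 (edgeR quasi-likelihood test, Benjamini-Hochberg over all genes). Npy lay at 10.9, 12.8 and 13.9 CPM in chow mice and at 21.1, 36.3 and 49.4 CPM in fasted mice. The groups were again fully apart, and the spread was wider among fasted (SD 9.59) than among chow mice (SD 1.12). The log2 fold change of Npy was 1.57 ± 0.17, a 2.96-fold increase, with an adjusted p of 2.0e-05. Both stayed past the threshold whichever mouse was left out. For comparison, 12.3% of the 21969 genes tested in the marker column were called, 6.04% in the upward and 6.23% in the downward direction, and 2.07% of genes had every fasted mouse above every chow mouse.

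**Figure D1:**
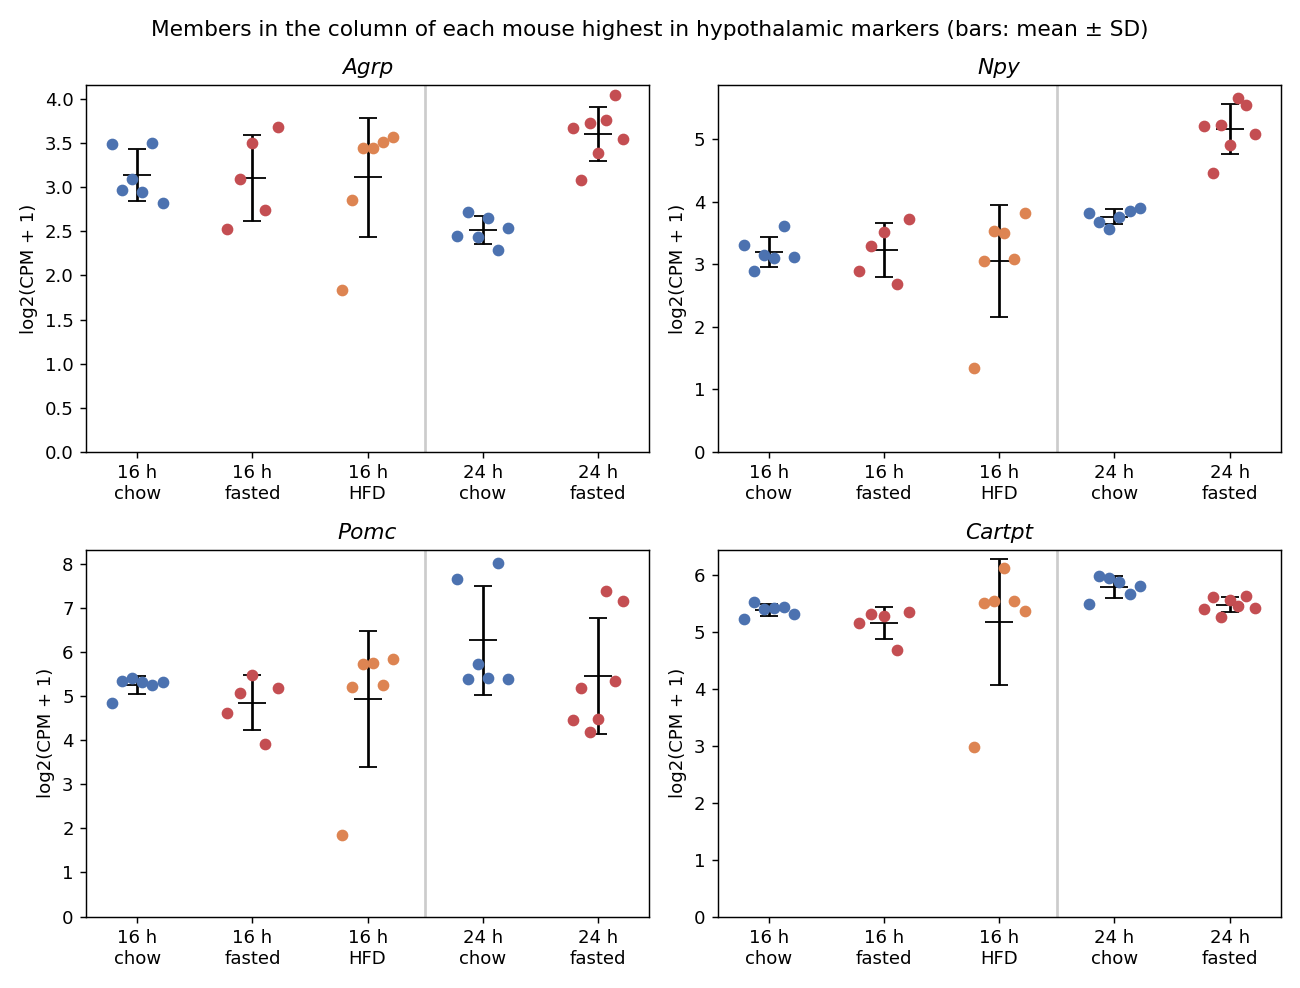
Agrp, Npy, Pomc and Cartpt in the marker column, as log2(CPM + 1) on the y axis, 1 point per mouse, by study and diet on the x axis, with black bars for the mean ± SD. The 24 h fasted mice lie above all 24 h chow mice for Agrp and Npy, and the low point in each 16 h HFD group is mouse 13.

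Of the 10 hypothalamic genes that chose the column, none was called between 24 h fasted and chow mice. Since these genes chose the column, their likeness between diets does not test how much hypothalamic tissue it held. The median log2 fold change of the 10 genes was -0.03 against 0.00 over all genes tested. Their summed level was 453 to 589 CPM in chow and 351 to 635 CPM in fasted mice. Of the cortical and hippocampal markers, 4 of 5 were tested, and Tbr1 was called higher (log2 fold change 1.25 ± 0.33, adjusted p = 0.020). The cortical sum was highest in fasted mouse 1433 (51.2 CPM) and chow mouse 1423 (26.6 CPM) and lay between 8.43 and 14.0 CPM in the other mice, and its part in the Npy difference was not tested. None of the 4 tested markers of choroid plexus or the 4 of midbrain was called.

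In the highest-Pomc column, Agrp lay at 0.162, 4.44 and 5.28 CPM in the chow mice, the lowest being the column of mouse 1432 with few hypothalamic genes, and at 7.48, 11.8 and 15.5 CPM in the fasted mice. The groups did not overlap. The log2 fold change was 1.58 ± 0.35 with an adjusted p of 0.028, where 2.42% of 21820 genes were called (1.24% higher and 1.18% lower) and 1.94% lay higher without overlap. This call was lost on leaving out any of 10 of the 13 mice, with an adjusted p of at most 0.070, and without mouse 1432 the log2 fold change was 1.37 with an adjusted p of 7.2e-05. Npy lay at 10.9, 12.8 and 13.9 CPM in chow and at 21.1, 36.3 and 49.4 CPM in fasted mice. Its log2 fold change was 1.40 ± 0.21 (adjusted p = 0.0031), and the call held on leaving out each of the 13 mice.

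In the 5-column sum of all 19 mice of the 24 h study the difference was smaller. Agrp lay at 1.31, 1.93 and 2.82 CPM in 9 chow mice and at 1.52, 2.89 and 6.31 CPM in 10 fasted mice. The groups overlapped, and the fasted mouse with the highest value, 1424, drew 49.5% of its sum from the deepest chosen column of the study (63.5 M counts). The sums include every library that the labels mark as failing alignment, in mouse 1424 those of hippocampus and superior colliculus. The share of each region in a sum can thus differ between mice. The log2 fold change of Agrp was 0.70 ± 0.22 with an adjusted p of 0.039, beside 11.4% of 29011 genes called (5.78% higher and 5.62% lower). Npy lay at 6.58, 12.4 and 18.0 CPM in chow and at 7.12, 17.4 and 23.9 CPM in fasted mice. These groups overlapped too, and the log2 fold change of Npy, 0.56 ± 0.21, was not called (adjusted p = 0.10). In mice whose hypothalamus library passed alignment, the highest-Pomc column made up 10.9% to 39.1% of the counts in chow and 12.5% to 49.5% in fasted mice. In the mice whose library failed, it made up 0.86% to 8.70% in chow and 5.33% to 7.90% in fasted mice. The Agrp call was lost on leaving out any of 12 of the 19 mice (highest adjusted p 0.072), while in the 13 mice whose hypothalamus library passed alignment Agrp (0.80, adjusted p = 0.020) and Npy (0.62, adjusted p = 0.033) were both called.

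**Figure D2:**
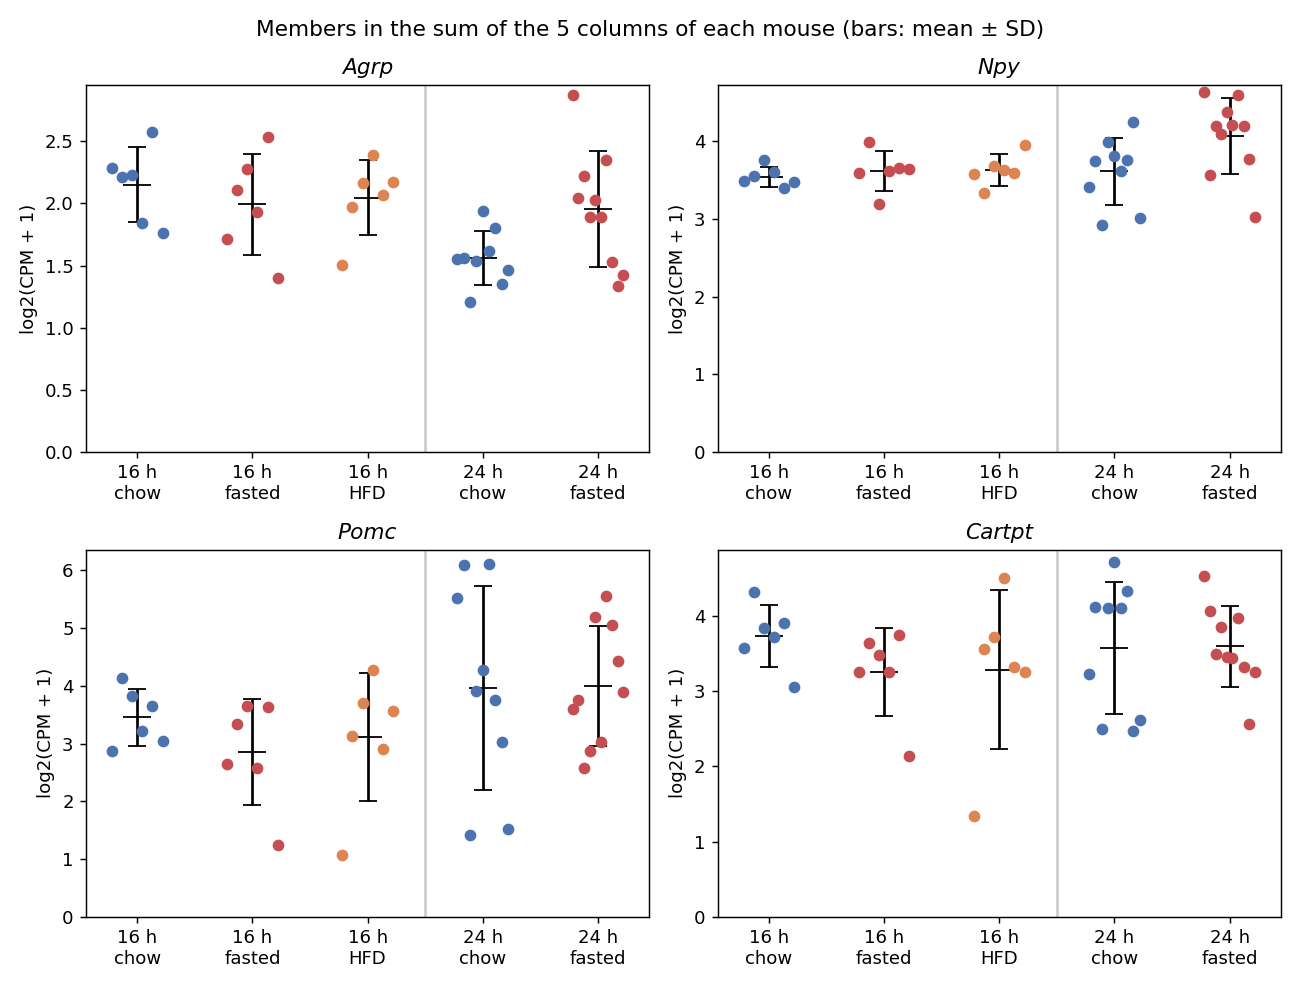
The 4 members in the sum of the 5 columns of each of the 37 mice, as log2(CPM + 1) on the y axis, by study and diet on the x axis, with black bars for the mean ± SD. The 24 h fasted and chow groups overlap for every member.

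The rise was not seen in the other 4 columns of the same mice. Added up, these held Agrp at 0.921, 1.35 and 1.63 CPM in chow and 0.499, 0.972 and 1.19 CPM in fasted mice, a log2 fold change of -0.53 ± 0.16 (adjusted p = 0.067). Npy, which is widespread in the brain, stood at 9.24, 12.3 and 16.0 CPM in chow and 6.32, 11.9 and 18.7 CPM in fasted mice (log2 fold change 0.04 ± 0.20, adjusted p = 0.94). The difference between the marker column and the other 4 columns, in log2(CPM + 1), was larger in fasted than in chow mice by 1.40 for Agrp and 1.42 for Npy, each with p = 0.0012 and an adjusted p of 0.0023 over the 4 members (two-sided exact permutation test, 7 fasted and 6 chow mice). The same difference was 0.66 for Pomc (adjusted p = 0.55, exact permutation test) and 0.25 for Cartpt (adjusted p = 0.35, exact permutation test). This test was added after the values had been seen.

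Gm38250, the gene antisense to Agrp, moved the other way. It was named here for its overlap after its values had been seen. In the marker column it lay at 2.52, 3.08 and 3.63 CPM in chow and at 1.42, 1.69 and 2.19 CPM in fasted mice, and no fasted mouse reached the lowest chow mouse, as for 4.96% of genes. It fell by 0.81 on the log2 scale (SE 0.12, adjusted p = 0.00034) there, by 0.73 in the 5-column sum (adjusted p = 1.2e-05) and by 0.74 in the other 4 columns (adjusted p = 0.011). The strand setting of the counts is not given in the sources used here. It is therefore not known whether reads of these overlapping exons were assigned to Agrp, to Gm38250 or to neither. Their part in the Agrp values was not tested.

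Pomc was variable in the 24 h study, and no difference between diets was called. Its marker column levels were 40.5, 47 and 256 CPM in chow and 17.2, 35.4 and 164.7 CPM in fasted mice. In chow, 4 mice lay between 40.5 and 52.3 CPM and mice 1431 and 1423 at 200 and 256 CPM. In fasted mice, 5 lay between 17.2 and 39.6 CPM and mice 1454 and 1444 at 141.1 and 164.7 CPM. The groups overlapped, and the log2 fold change was -0.64 ± 0.64 (adjusted p = 0.60), a spread between mice at which a change of this size was not detectable. In the 5-column sum it was -0.41 ± 0.61 (adjusted p = 0.75). In the highest-Pomc column, which Pomc itself chose, the levels were 40.5, 126.4 and 289 CPM in chow and 17.2, 35.4 and 164.7 CPM in fasted mice, a log2 fold change of -1.51, and of -0.81 without chow mouse 1432, whose column held the 289 CPM.

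Pituitary genes were present in the same columns. Gh, which encodes growth hormone, lay at 1.12, 36.2 and 7953 CPM in the 24 h chow mice and at 7.35, 16.3 and 147.5 CPM in the fasted mice, and Prl, which encodes prolactin, reached 1991 CPM in chow mouse 1431. The summed level of the 10 pituitary markers was 7.30 to 10110 CPM in chow and 13.6 to 168.03 CPM in fasted mice. Of these 10 genes 7 were tested and Prl was called lower (log2 fold change -6.21 ± 1.70, adjusted p = 0.025). This call rested on mouse 1431. The other 5 chow mice had Prl between 0.232 and 25.5 CPM and the fasted mice between 0.953 and 14.8 CPM, and without mouse 1431 the log2 fold change was -0.57 ± 0.91 (adjusted p = 0.79). The call was also lost without fasted mouse 1424 or 1434 (adjusted p = 0.051 and 0.052). No marker but Cga, Pou1f1 and Fshb was at 0 in any of these 13 mice. Tshb, Lhb and Pitx1 were also above 0 in the marker column of every 16 h mouse read. The pituitary sum of the 16 h chow mice was 6.80 to 10.3 CPM. Among chow medians, Tshb (3.19 against 4.03 CPM), Lhb (0.838 against 0.978) and Tbx19 (1.29 against 1.75) were lower at 24 h than at 16 h. The other markers were higher. In 24 h fasted mice Tbx19 was at most 1.18 CPM. The 4 mice with Pomc over 100 CPM had Gh at 7953, 195, 29.7 and 147.5 CPM (1431, 1423, 1454 and 1444), while mouse 1453 had Gh at 120.3 CPM and Pomc at 39.6 CPM. With log2(Gh CPM + 1) as a covariate, the log2 fold change of Pomc was -0.17 ± 0.48 (adjusted p = 0.88), and those of Agrp (1.33 ± 0.15) and Npy (1.61 ± 0.16) were nearly as before. In the 16 h study, Gh was at most 1.10 CPM but for 24.6 CPM in fasted mouse 9, and was 0 in all 6 HFD mice.

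**Figure D3:**
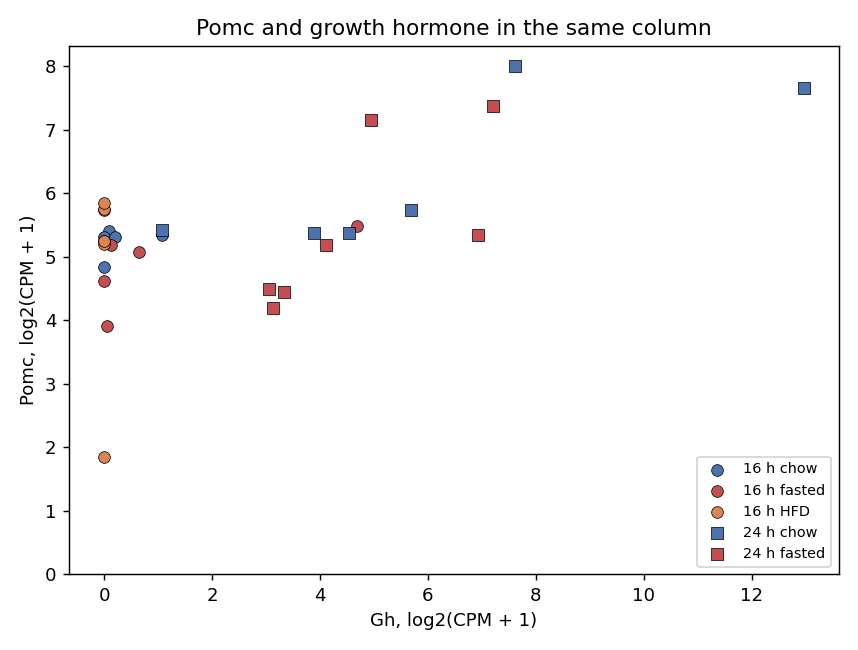
Pomc (y axis) against Gh (x axis) in the marker column of 30 mice, both as log2(CPM + 1), circles for the 16 h and squares for the 24 h study. The 4 mice with the highest Pomc are all from the 24 h study and carry Gh between 29.7 and 7953 CPM, and the lowest circle is mouse 13.

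Cartpt differed little between diets at 24 h. Its marker column levels were 43.7, 56.1 and 62 CPM in chow and 37.2, 42.7 and 48.3 CPM in fasted mice. Most fasted mice lay below the chow mice, but the groups overlapped through chow mouse 1431, the mouse with the most Gh. The log2 fold change was -0.28 ± 0.09 with an adjusted p of 0.052, just above the threshold. It was called on leaving out mouse 1431 or 1444 (adjusted p as low as 0.015) and with Gh as a covariate (-0.29 ± 0.09, adjusted p = 0.046). In the highest-Pomc column, which in mouse 1432 held only 8.03 CPM of Cartpt, the log2 fold change was -0.07 ± 0.22 (adjusted p = 0.91), and in the 5-column sum -0.05 ± 0.32 (adjusted p = 0.95).

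The ratio of Agrp to Pomc reads in the 5-column sum takes library depth out of the comparison. At 24 h its log2 was -5.11, -2.71 and -0.09 in 9 chow mice and -4.10, -2.52 and -0.45 in 10 fasted mice. The groups overlapped throughout. The mean was higher in fasted mice by 0.42, with p = 0.57 (two-sided exact permutation test) and an adjusted p of 0.58 over the 3 comparisons. In the mice whose hypothalamus library passed alignment, the mean was higher by 1.92 (p = 0.021, adjusted p = 0.063, exact permutation test of 7 against 6 mice). Of these, chow mice 1431, 1423 and 1432 held 6701, 7496 and 6298 Pomc reads in the sum, and the other chow mice 910 to 2034. In mouse 1432, 5359 of these reads lay in its highest-Pomc column, with a marker score of 1.40. The fasted mice held 585 to 6895 Pomc reads. The part of Pomc alone in this difference was not tested. At 16 h it was higher than in chow by 0.52 in fasted mice (adjusted p = 0.48, exact permutation test) and by 0.33 in HFD mice (adjusted p = 0.58, exact permutation test). The direction in HFD mice rested on mouse 13, without which the difference was -0.05 (adjusted p = 0.85, exact permutation test). Cage mates were permuted as independent mice in these 16 h tests.

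After 16 h, no member was called in either diet in any reading that tested it. Agrp in the marker column lay at 6.06, 7.17 and 10.3 CPM in chow mice and at 4.76, 7.56, 10.3, 5.67 and 11.8 CPM in fasted mice 7, 8, 9, 10 and 11. Npy lay at 6.42, 7.80 and 11.2 CPM in chow and at 6.43, 8.83, 10.4, 5.45 and 12.3 CPM in the same fasted mice. For both genes the fasted mice spread to either side of the chow mice. The log2 fold changes were 0.05 ± 0.26 for Agrp (adjusted p = 0.997) and 0.11 ± 0.28 for Npy (adjusted p = 0.98). Pomc and Cartpt were at -0.30 ± 0.35 and -0.19 ± 0.27, and fasted mouse 10 was lowest for both at 13.9 and 24.6 CPM. In the 5-column sum the values were -0.17 ± 0.23 for Agrp, 0.12 ± 0.13 for Npy, -0.52 ± 0.48 for Pomc and -0.48 ± 0.39 for Cartpt. The highest-Pomc column, in which mouse 11 had no Agrp read, gave -0.15 ± 0.26 for Agrp, -0.06 ± 0.28 for Npy and -0.25 ± 0.28 for Cartpt.

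Over all genes, edgeR called 0.0% of genes in the marker column (23067 tested), the highest-Pomc column (22949 tested) and the sum (29746 tested), in fasting and on HFD alike. At an unadjusted p under 0.05 there were 1494 genes (6.48%) for fasting and 1291 (5.6%) for HFD in the marker column, 853 (3.72%) and 1199 (5.22%) in the highest-Pomc column, and 2267 (7.62%) and 2914 (9.8%) in the sum. DESeq2 called 15 and 0 genes in the marker column, 0 and 0 in the highest-Pomc column, and 19 and 5 in the sum. Mice of this study shared cages, and the members stayed uncalled with cage sums as replicates.

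On HFD, the marker column held Agrp at 2.58, 9.90 and 10.9 CPM, Npy at 1.52, 8.89 and 13.2 CPM, Pomc at 2.58, 44.4 and 56.2 CPM and Cartpt at 6.91, 44.7 and 68.1 CPM. The lowest value of all 4 was that of mouse 13. With it, log2 fold changes against chow were 0.11 ± 0.25 for Agrp, 0.08 ± 0.27 for Npy, 0.12 ± 0.33 for Pomc and 0.07 ± 0.25 for Cartpt. Without it they were 0.27 ± 0.19, 0.27 ± 0.18, 0.34 ± 0.17 and 0.27 ± 0.11, and none was called (adjusted p between 0.57 and 0.73). In the 5-column sum, which includes mouse 13, they were -0.11 ± 0.23, 0.13 ± 0.13, -0.12 ± 0.47 and -0.23 ± 0.39. Without it, these sums gave 0.0066 ± 0.22 for Agrp, 0.14 ± 0.13 for Npy, 0.11 ± 0.39 for Pomc and -0.0086 ± 0.29 for Cartpt, so that the sign turned for Agrp and Pomc and none was called.

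**Figure D4:**
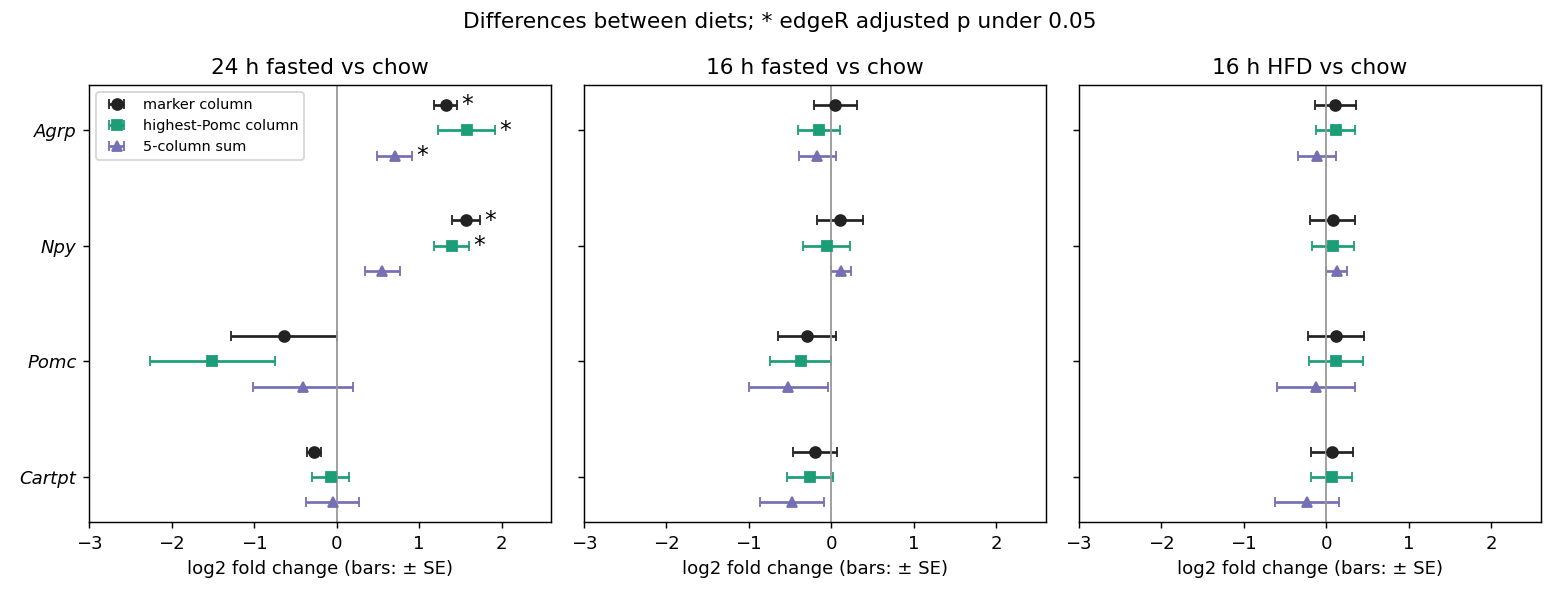
Log2 fold changes (x axis) of the 4 members (y axis) against chow in the 3 diet comparisons, with bars for ± SE, circles for the marker column, squares for the highest-Pomc column and triangles for the 5-column sum. Stars mark an edgeR adjusted p under 0.05, and only Agrp and Npy at 24 h carry them. Pomc in the highest-Pomc column was not tested.

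The fasting effects of the 2 studies were compared directly. In the marker column, the effect at 24 h exceeded that at 16 h by 1.44 ± 0.34 on the log2 scale for Npy (adjusted p = 0.020) and by 1.26 ± 0.32 for Agrp (adjusted p = 0.036), where 1.6% of 24356 genes were called. Without mouse 13 the differences were 1.44 (adjusted p = 0.0019) and 1.26 (adjusted p = 0.0055). In the highest-Pomc column (0.434% called) they were 1.45 ± 0.39 (adjusted p = 0.11) and 1.71 ± 0.45 (adjusted p = 0.092), and in the sum (1.7% called) 0.44 ± 0.28 (adjusted p = 0.67) and 0.88 ± 0.33 (adjusted p = 0.25). Neither Pomc nor Cartpt differed past the threshold in a reading that tested it. With every mouse in the marker column, those that failed alignment included, neither difference was called, at 1.77 (adjusted p = 0.13) for Npy and 1.65 (adjusted p = 0.12) for Agrp. Duration, housing, clock time of the start, the set of brain regions and sequencing, read length included, differ together between the studies. They cannot be told apart.

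Per kilobase of the canonical transcript, the order of the members changed with fasting at 24 h. In chow mice, the median marker column level was 46.6 CPM per kb for Pomc, 45.2 for Cartpt, 22.7 for Npy and 5.95 for Agrp. Pomc and Cartpt did not differ beyond their spread, Pomc being higher in 3 of 6 mice, while Cartpt exceeded Npy and Npy exceeded Agrp in 6 of 6 mice. In fasted mice the medians were 64.1 CPM per kb for Npy, 35.2 for Pomc, 34.5 for Cartpt and 15.1 for Agrp. Npy was above Pomc in 5 of 7 mice, Pomc above Cartpt in 3 of 7, and Cartpt above Agrp in 7 of 7. In 16 h chow mice the order was Pomc (38.5), Cartpt (33.3), Npy (13.8) and Agrp (9.22), with Pomc above Cartpt in 5 of 6 mice and the other steps in 6 of 6. The canonical transcript of Agrp is 778 bases long, and the exons of the gene share 748 bases with Gm38250. The effect of this overlap on the place of Agrp in the order was not tested. The canonical transcripts of Npy, Pomc and Cartpt are 566, 1008 and 1240 bases long, while all annotated exons cover 1810, 1325 and 2677 bases. Reads were counted per gene, so the order, that of Npy and Pomc included, depends on the length used. Other lengths were not tested.

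Across the brain columns, Agrp, Pomc and Cartpt peaked in the marker column and Npy did not. The marker column held the most Agrp of the 5 in 28 of the 30 mice, the most Pomc in 28 and the most Cartpt in 30, but the most Npy in only 6. In the other columns of all mice with at least 1000000 counts the median was 1.41 CPM for Agrp, 1.35 for Pomc, 1.54 for Cartpt and 11.6 for Npy. The matching medians over the 29 marker columns without mouse 13 were 7.56, 39.3, 42.7 and 11.2 CPM. Among the other columns, Pomc reached 289 CPM, in mouse 1432.

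Genes that act with these peptides were read from lists in the marker column of the 24 h mice. These lists are read against the 6.04% of all genes tested that were called higher there and the 6.23% called lower. Of 9 receptors, 2 were higher and 1 lower in fasted mice: Ghsr, the ghrelin receptor, rose 1.84-fold (log2 0.88 ± 0.10, adjusted p = 3.0e-05), Insr, the insulin receptor, rose 1.18-fold (0.23 ± 0.04, adjusted p = 0.0010), and Npy2r, a receptor for NPY found on the AgRP/NPY neurons themselves, fell by 0.35 on the log2 scale (SE 0.10, adjusted p = 0.034). Lepr, the leptin receptor, was at 0.40 ± 0.13 (adjusted p = 0.061), and Mc3r and Mc4r at -0.20 ± 0.12 and -0.10 ± 0.15. Of 7 genes of peptide processing, Pcsk2, a convertase that cuts POMC and other precursors, was higher (0.36 ± 0.08, adjusted p = 0.011) and Prcp, which breaks down alpha-MSH, was lower (-0.31 ± 0.08, adjusted p = 0.022). Pcsk1 and Cpe, which also process POMC, were not called.

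Of 10 transcription factors and feedback genes, Foxo1, which insulin signalling holds out of the nucleus, was higher (0.44 ± 0.10, adjusted p = 0.0076) and Tbx3 was lower (-0.38 ± 0.07, adjusted p = 0.0017). Socs3, which is induced by leptin signalling, was at -0.52 ± 0.19 (adjusted p = 0.092). Of 9 other arcuate peptides and AgRP neuron genes, Vgf, a secreted peptide precursor, was higher (0.46 ± 0.10, adjusted p = 0.0070), and Ghrh, Tac2, Sst, Gal and the others were not called. Ghrh and Otp of these lists were also among the 10 genes that chose the column. The medians of these 4 lists lay between -0.10 and 0.10, against 0.00 over all genes tested. In the highest-Pomc column, where 2.42% of genes were called, Foxo1 alone of these lists was called (0.45 ± 0.11, adjusted p = 0.046), and in the sum, where 11.4% were, Insr, Foxo1, Stat3 and Vgf were higher and Prcp lower. At 16 h none of the listed genes was called in the marker column. The 24 h effect exceeded the 16 h effect for Ghsr (by 0.89 ± 0.21, adjusted p = 0.021) and for no other gene of these 4 lists in the marker column, and in the sum for Insr (by 0.20 ± 0.05, adjusted p = 0.015).

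The genes most like each member were sought over the 30 highest-Pomc columns, as Pearson's r of log2 CPM taken relative to the mean of the study and diet. They were Tbx3, Ttc21a, Cd109, Prrg4 and Lrp2 for Agrp (r 0.976 to 0.983), Cmbl, Cpa4, Rrad, Sertad4b-ps and Dlx5 for Npy (0.83 to 0.845), Morn4, Sema3a, Slc25a39, Sytl5 and Vps28 for Pomc (0.679 to 0.789) and Irs4, AW551984, Dlk1, Hdc and Gabrq for Cartpt (0.960 to 0.970). These columns share the departing libraries of mice 11, 13 and 1432. Over them, r between Agrp and Npy was 0.008, and over the 30 marker columns, mouse 13 included, it was 0.901. Over the 29 marker columns without mouse 13, a choice made after seeing the data, Agrp was then most like Npy (r = 0.804), followed by Itfg2, Cited1, Slc35a2 and Cdh22, and Npy most like Agrp, followed by Cited1, Bsdc1, Rbm24 and Gpr6. Pomc was most like Pcsk1 (0.671), then Gh (0.652), Tent5a, Lsm10 and Morn4, and Cartpt most like Arf2 (0.779), then Romo1, Gcsh, Psme1 and Caly. Agrp had r = 0.061 with Pomc and 0.231 with Cartpt.

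Body weight fell by 17.1% to 21.4% in the 24 h fasted mice and changed by -0.39% to 3.46% in their chow controls. At 16 h it changed by -7.52% to -1.30% in fasted, -1.21% to 5.13% in chow and -0.78% to 1.53% in HFD mice. Within diet groups of at least 6 mice, 32 relations between a member's log2(CPM + 1) and the weight change were computed, 20 in the sums and 12 in the highest-Pomc columns, where Pomc was left out. None passed adjustment, the smallest adjusted p being 0.19 for Pearson's r and 0.21 for Spearman's rho (permutation of pairings, exact below 10 mice), and 6 and 5 had an unadjusted p under 0.05. In the 10 fasted mice of the 24 h study, Npy in the sum was lower in mice that lost less weight (r = -0.71, permutation p = 0.021, rho = -0.53, permutation p = 0.12). Without the 2 mice farthest from the median, 1425 and 1455, r was -0.26, so the relation rests on them. The labels mark the hypothalamus library of mouse 1455 as failing alignment. In the 7 fasted mice whose library passed, r was -0.76 (exact permutation p = 0.050, adjusted p = 0.24) and rho -0.43 (exact permutation p = 0.35). Without mice 1425 and 1454, r was 0.05 in these. In 16 h HFD mice, Npy in the sum had r = -0.80 (exact permutation p = 0.021, adjusted p = 0.19) and rho = -0.94 (exact permutation p = 0.017, adjusted p = 0.21). Without mice 14 and 13, the farthest from the median, r was -0.69. Cage mates of the 16 h study were permuted as independent mice.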

How the data were processed

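RNA-seq was performed on 5 brain regions of each of 37 mice after rRNA depletion. The authors demultiplexed with bcl2fastq 2.20.0 and aligned with STAR 2.7.3a to GRCm39, and deposited raw read counts per Ensembl gene, the only unit used. R 4.1.3 is also named in the processing notes. The strand setting of the counts is not given in the sources used here. Gene symbols, positions and transcript lengths came from GENCODE vM39, and 56310 of 57010 IDs had one. Replicates are mice.

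Counts were summed per mouse or taken from 1 column per mouse and tested in edgeR 4.0.16 (filterByExpr, TMM, quasi-likelihood) on the whole table, with Benjamini-Hochberg adjustment and a threshold of 0.05. Chow, fasted and HFD mice at 16 h entered a single model. SE is the log2 fold change divided by the root of the F statistic. CPM are counts per 1000000 counts of the column or sum. DESeq2 1.42.0, limma 3.58.1, no filter on low counts, every mouse, cage sums and leaving out each mouse served as alternatives. Pomc entered no weight relation in the column it chose. Ratios, weight relations and contrasts of columns used exact permutation tests over mice (100000 resamples for 10 mice). Members and gene lists were chosen with earlier results of these data known. Members are always named. Of each list, up to 2 genes that rose and 2 that fell most among the called are named in the main reading, and listed genes given without a call were picked after their values were seen. For likeness, the 5 genes with the highest r are named. Of the lists' symbols, 1 (Kiss1) matched no ID. The fits were tested on simulated data. Marker columns without mouse 13, columns of at least 1000000 counts, the Gh covariate, the other 4 columns and the ratio without mouse 13 were alternatives added after seeing the data.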

Additional observations from a re-analysis of the deposited data

Results flagged for a closer look

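In 55 groups of 5 to 10 mice, the gap of the highest or lowest mouse to its neighbour was compared with the range of the group (Dixon's test, by which chance alone marks about 1 group in 20), and 3 values stood apart. Pomc in the highest-Pomc column was left out, since it chose the column. Chow mouse 1432 of the 24 h study lay at 0.162 CPM of Agrp in its highest-Pomc column, against 3.86 CPM in the next mouse, and at 8.03 CPM of Cartpt, against 43.7 CPM. Its marker column held 5.56 CPM of Agrp and 62 CPM of Cartpt. Chow mouse 1 of the 16 h study lay at 27.5 CPM of Pomc, against 37.0 CPM in the next mouse, in its marker column.

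The fasting effect differed between the studies in the marker column, by 1.26 on the log2 scale for Agrp and by 1.44 for Npy (edgeR test of the difference, adjusted p = 0.036 and 0.020). With every mouse, those that failed alignment included, the differences were 1.65 and 1.77 (adjusted p = 0.12 and 0.13). Duration, housing, clock time of the start, the set of brain regions and sequencing differ together between the studies and cannot be told apart.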

How the results depend on the processing

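Of 641 values recomputed with 1 mouse left out, 584 kept their direction and their side of the threshold, and of 297 under other settings 262 did. The cause of the changes listed here was not tested. Leaving out 1 mouse moved the log2 fold changes at 24 h to 0.51 to 0.78 for Agrp, 0.48 to 0.66 for Npy and -0.21 to 0.11 for Cartpt in the sum, to 1.37 to 1.66 for Agrp and -0.24 to 0.041 for Cartpt in the highest-Pomc column (1.33% to 8.57% of genes called against 2.42%, lowest without mouse 1424 and highest without mouse 1432), and to -0.34 to -0.23 for Cartpt in the marker column. At 16 h it moved HFD values in the sum to -0.21 to 0.011 for Agrp and -0.43 to 0.11 for Pomc, in the highest-Pomc column to -0.13 to 0.27 for Cartpt and -0.066 to 0.27 for Npy, and in the marker column to -0.13 to 0.27 for Cartpt and -0.069 to 0.27 for Npy. Fasted values at 16 h ran from -0.21 to 0.078 for Npy in the highest-Pomc column and from -0.14 to 0.18 for Agrp and -0.060 to 0.23 for Npy in the marker column. Npy in the sum at 24 h was called only without mouse 1455.

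In the sum at 24 h, Agrp was no longer called without a filter on low counts (0.71, adjusted p = 0.050), without mice 1423 and 1454 (0.67, adjusted p = 0.087) and with the mean log2 CPM of the columns in limma (0.10, adjusted p = 0.93, with 2.89% of genes called), and Npy was called in the mice that passed alignment (0.62), where the difference of fasting effects for Pomc was -0.75. limma gave -0.44 for Npy at 16 h fasting and 0.12 for Agrp on HFD, and moved the median of all genes at 16 h fasting to -0.25. In the highest-Pomc column at 24 h, 5.42% of genes were called by DESeq2, 0.765% without a filter, 0.678% with every mouse and 12.3% in the marker column, and with every mouse Pomc was at 0.068 and Cartpt at 0.22. Without a filter 6.10% of genes were called in the sum and 4.71% in the marker column. At 16 h fasting Agrp was at 0.048 and Npy at 0.11 with the marker column (0.049 and 0.11 without mouse 13) and at 0.048 and 0.11 with columns of at least 1000000 counts, and Npy at 0.061 with the boxes grouped by the order of their numbers within a diet, a grouping made here and not a batch the labels name. The HFD difference in the Agrp to Pomc ratio was -0.054 without mouse 13, an alternative added after seeing the data.

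With every mouse in the marker column, Pomc at 24 h was at 0.80, Cartpt at 0.088 and 1.13% of genes were called, Agrp and Npy at 16 h fasting were at -0.047 and -0.046, and the differences of fasting effects were 1.65 for Agrp (adjusted p = 0.12), 1.77 for Npy (adjusted p = 0.13), 1.27 for Pomc and 0.43 for Cartpt. In the other 4 columns, Agrp was at -0.53, Npy at 0.039 and 6.30% of genes were called, and with Gh as a covariate Cartpt was at -0.29. Counts of 72 to 227 limit Agrp in chow mice. No paired analysis was possible because mouse numbers are not shared between diets.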
